A study of Mus musculus with 9 samples.

Results

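Ccl3, Ccl4, Ccl5 and Xcl1, the chemokines best known as secreted effectors of natural killer (NK) cells, were followed across 9 Affymetrix arrays of sorted mouse NK cells. The set was taken as every probe set annotated to 1 of these symbols and to no other gene. That gave 1 probe set for each chemokine, so 4 of the 34945 probe sets with a single symbol and 4 of the 18193 genes they cover. The cells came from bone marrow of NKDxIL15tg mice, from spleen of NKDxIL15tg mice and from spleen of IL15tg mice, with 3 arrays of labelled biological replicates in each group. All 9 samples carry the IL-15 transgene, which supplies a cytokine that NK cells need in order to live, and none comes from a mouse without it. The NKD line bears a further transgene, reported to lie in the Atf2 gene, and is known for its lack of mature NK cells. The series calls the NKDxIL15tg cells immature and the IL15tg cells mature, so stage and NKD genotype cannot be told apart in any comparison with IL15tg cells. Marrow was sampled in NKDxIL15tg mice alone, and marrow against IL15tg spleen therefore differs in organ as well. The ages of the mice, the promoter of the IL-15 transgene, the sort gate and any pooling of animals are not given in the sources used here.

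Chemokines are small secreted proteins that draw cells carrying the matching receptor along a gradient. Ccl3 (also MIP-1 alpha), Ccl4 (MIP-1 beta) and Ccl5 (RANTES) are CC chemokines that overlap in the receptors they use, among them Ccr1 for Ccl3 and Ccl5, and together they recruit T cells, monocytes and other NK cells to inflamed tissue. Xcl1, or lymphotactin, acts on Xcr1, the receptor of the dendritic cells that cross-present antigen to CD8 T cells. NK cells are known to hold Ccl5 and Xcl1 messages without stimulation, and to raise Ccl3 and Ccl4 quickly after receptor engagement.

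The labelled cell type was checked against 16 NK cell marker genes. Their summed intensity was 35741 to 38200 in NKDxIL15tg marrow, 41204 to 44583 in NKDxIL15tg spleen and 52808 to 54566 in IL15tg spleen. Ncr1, which encodes the NK receptor NKp46, averaged 1156, 1078 and 1642 in the same order of groups, while Cd3e of the T cell receptor complex averaged 67.5, 60.4 and 56.1. By limma's adjusted threshold 1 of the 16 was higher and 4 were lower in NKDxIL15tg against IL15tg spleen. Over all tested genes the shares were 7.65% and 4.87%. In marrow against IL15tg spleen 1 was higher and 5 were lower, beside 11.5% and 8.7% of all genes. Array medians were 56.6 to 59.1 except in NKDxIL15tg marrow replicate 3, at 64.9. That array stood apart: it held 2080 probe sets at more than 2-fold their highest level elsewhere, where none of the 8 remaining arrays held more than 6. For actin, the 3' probe set exceeded the 5' one by 0.93 on the log2 scale in this array and by 1.49 to 2.73 in the rest. Marrow values of the 4 chemokines and marrow counts of the ligand, receptor, cytokine, regulator and secretion genes are therefore also given without it, while the marrow marker counts and the means and medians of other genes include it. Values are the authors' deposited intensities on a linear scale, and log2 changes are given with the standard error of limma's fit over 27022 probe sets on all 9 arrays. P-values are limma's, adjusted by the Benjamini-Hochberg method over those probe sets with a threshold of 0.05, and they measure the spread between these samples. All 4 chemokine probe sets passed the filter on dim probe sets, a mean intensity of about 47.7, and each was above it in the mean of every group.

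Reference sequence upstream of the gene start was matched for 2 of the 4 chemokines, Ccl3 and Xcl1, from RefSeq with the GRCm38.p6 assembly. Both matched windows are shown, of which Ccl3 belongs to a message that fell in NKDxIL15tg cells and Xcl1 to one whose change did not pass the test. Each run is the 250 bases before the start, 5′ to 3′ on the gene's strand, which is the minus strand in both cases. The Ccl3 window is chr11:83649379-83649628 and the Xcl1 window is chr1:164935523-164935772. Capitals mark matches to the Runx letters TGTGGT or the T-box letters TCACAC on either strand.
Ccl3: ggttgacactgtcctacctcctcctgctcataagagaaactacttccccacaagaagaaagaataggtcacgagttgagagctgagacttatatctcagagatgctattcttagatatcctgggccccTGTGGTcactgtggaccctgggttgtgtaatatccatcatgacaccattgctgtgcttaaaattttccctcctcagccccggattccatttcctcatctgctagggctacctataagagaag
Xcl1: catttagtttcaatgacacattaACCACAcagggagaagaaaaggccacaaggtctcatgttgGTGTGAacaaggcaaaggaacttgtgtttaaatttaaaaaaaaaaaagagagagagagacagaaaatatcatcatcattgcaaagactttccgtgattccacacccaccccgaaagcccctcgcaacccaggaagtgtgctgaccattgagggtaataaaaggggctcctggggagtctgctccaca
The Ccl3 window holds the Runx letters once, 122 to 117 bases before the start. The Xcl1 window holds them once on the opposite strand, as ACCACA 227 to 222 bases before the start, and the T-box letters once on the opposite strand, as GTGTGA 187 to 182 bases before it. No marked match overlaps another. Of 32851 reference windows of this length, 14.0% hold the Runx letters and 12.3% the T-box letters. The other 5 motifs searched on both strands were the NF-kB motif (in 45.8% of windows), AP-1 (TGANTCA, 6.75%), STAT (TTCNNNGAA, 7.02%), CRE (TGACGTCA, 1.55%) and the TATA letters TATAAA (12.4%), and neither window holds these letters. A match is a run of letters and says nothing of binding.

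Ccl3 was low in NKDxIL15tg cells of both organs and high in IL15tg spleen cells. Its probe set read 90.4, 85.2 and 152 in NKDxIL15tg marrow, 74.5, 95.6 and 151 in NKDxIL15tg spleen, and 2018, 2337 and 1749 in IL15tg spleen. Every IL15tg array lay far above every NKDxIL15tg array, and replicate 3 was the highest array in both NKDxIL15tg groups. The group means were 109 ± 37.3 in NKDxIL15tg marrow, 107 ± 39.7 in NKDxIL15tg spleen and 2035 ± 294 in IL15tg spleen (SD, n = 3 each). In spleen Ccl3 fell by a log2 change of -4.30 ± 0.29 in NKDxIL15tg against IL15tg cells (95% interval -4.96 to -3.64), 19.7-fold lower, with limma's adjusted p of 3.91e-05. Only 3 of the 27022 probe sets had a lower log2 change in this comparison. In marrow against IL15tg spleen the log2 change was -4.26 ± 0.29 (-4.92 to -3.60), 19.2-fold lower, with an adjusted p of 3.32e-05, and it was -4.52 without marrow replicate 3. In the sorted samples, fewer cells that express a gene and less RNA of it per cell cannot be told apart.

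Ccl4, the close relative and chromosomal neighbour of Ccl3, showed the same split between the groups. Its probe set read 60.9, 60.9 and 55.1 in NKDxIL15tg marrow, 46.4, 53.8 and 56.2 in NKDxIL15tg spleen, and 556, 725 and 503 in IL15tg spleen. Every NKDxIL15tg array lay below every IL15tg array, and the marrow and spleen arrays of NKDxIL15tg mice overlapped. The means were 59.0 ± 3.37 in NKDxIL15tg marrow, 52.1 ± 5.15 in NKDxIL15tg spleen and 595 ± 116 in IL15tg spleen (SD, n = 3 each). Ccl4 fell by 3.50 ± 0.15 on the log2 scale in NKDxIL15tg against IL15tg spleen (interval -3.84 to -3.16), 11.3-fold lower, with limma's adjusted p of 2.59e-06. The fall in marrow against IL15tg spleen was a log2 change of -3.32 ± 0.15 (interval -3.66 to -2.98), 9.98-fold lower, with an adjusted p of 3.47e-06, and it was -3.27 without marrow replicate 3. The NKDxIL15tg values lie around the array medians and near the filter at 47.7, with 1 spleen array, at 46.4, under it. Detection calls were not used here, so whether any Ccl4 signal above background remained in NKDxIL15tg cells is not known. With intensities floored at 64 instead of 16, the spleen log2 change of Ccl4 was -3.20, still past the threshold.

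Ccl5 stayed high in all 9 arrays. It read 7750, 7121 and 7724 in NKDxIL15tg marrow, 8282, 7846 and 7890 in NKDxIL15tg spleen, and 9252, 8787 and 9022 in IL15tg spleen. The arrays fell into 3 ranges that did not overlap, with marrow lowest and IL15tg spleen highest, but the steps between them were small. The means were 7532 ± 356 in NKDxIL15tg marrow, 8006 ± 240 in NKDxIL15tg spleen and 9021 ± 232 in IL15tg spleen (SD, n = 3 each). The log2 change of Ccl5 in NKDxIL15tg against IL15tg spleen was -0.17 ± 0.09 (interval -0.38 to 0.04), with limma's adjusted p of 0.274. In NKDxIL15tg marrow against IL15tg spleen it was -0.26 ± 0.09 (interval -0.47 to -0.05), and its adjusted p of 0.0768 missed the threshold. That p passed with the floor at 64, at 0.0159, and with no filter on dim probe sets, at 0.0287, while without marrow replicate 3 it was 0.0836. In the main fit the interval in spleen reached down to -0.38, a far smaller fall than that of Ccl3 or Ccl4. That end is not a limit on the fall. At a common 75th percentile the spleen log2 change of Ccl5 was -0.14 with a larger standard error, 0.14. The brightest probe set of each array read 12927 to 14011, so Ccl5 lay in the upper range of the arrays. No marks of saturation were used here, and whether intensities in that range understate a fall was not tested.

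Xcl1 gave signal in all groups and had its highest mean in NKDxIL15tg marrow, though no difference passed the adjusted test. It read 1038, 854 and 1932 in NKDxIL15tg marrow, 720, 711 and 763 in NKDxIL15tg spleen, and 749, 831 and 994 in IL15tg spleen. Both spleen groups overlapped, every marrow array lay above every NKDxIL15tg spleen array, and marrow replicate 3 lay above all others. The means were 1275 ± 577 in NKDxIL15tg marrow, 732 ± 27.8 in NKDxIL15tg spleen and 858 ± 125 in IL15tg spleen (SD, n = 3 each). In NKDxIL15tg against IL15tg spleen the log2 change of Xcl1 was -0.22 ± 0.26 (interval -0.82 to 0.38, limma's adjusted p = 0.682). In NKDxIL15tg marrow against NKDxIL15tg spleen it was 0.71 ± 0.26 (interval 0.11 to 1.31), with an unadjusted limma p of 0.0249 and an adjusted p of 0.457. Without marrow replicate 3 the same log2 change was 0.37, with an adjusted p of 0.565. In NKDxIL15tg marrow against IL15tg spleen it was 0.49 ± 0.26 (interval -0.11 to 1.09, adjusted p = 0.213), and 0.14 without that array.

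**Figure D1:**
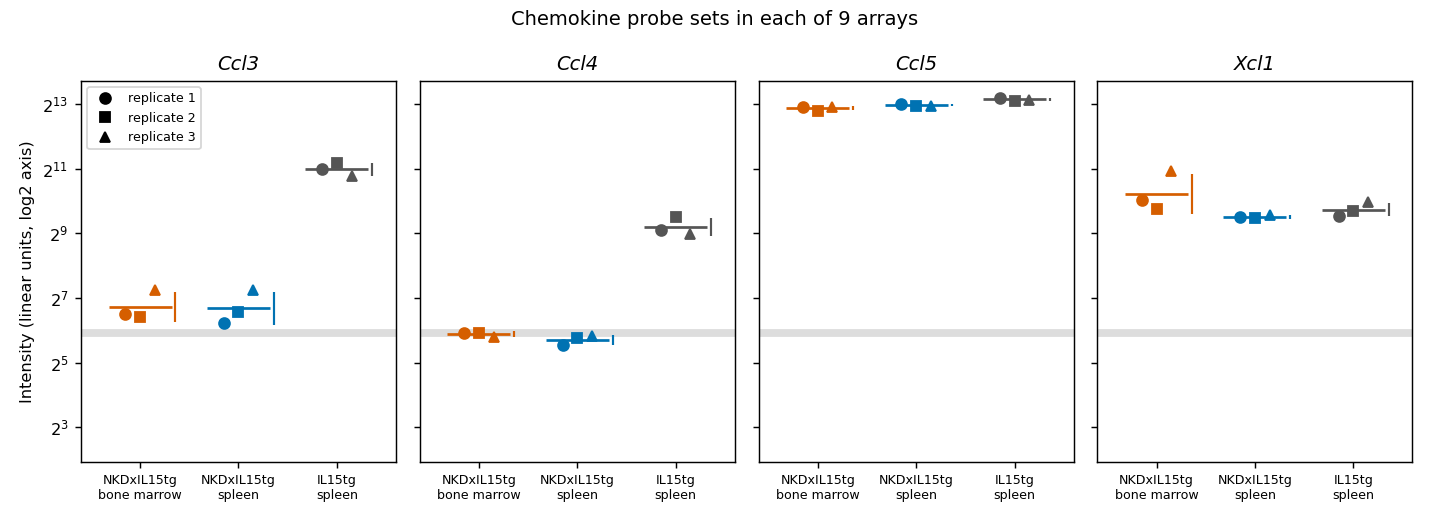
Intensity of the Ccl3, Ccl4, Ccl5 and Xcl1 probe sets on each array (linear units on a log2 axis), with NKDxIL15tg marrow, NKDxIL15tg spleen and IL15tg spleen from left to right in each panel. Symbols are replicates, horizontal lines are means of log2 values, vertical lines beside them are 1 SD of log2 values either way (n = 3), and the grey band is the range of array medians, 56.6 to 64.9. Ccl3 and Ccl4 are low in both NKDxIL15tg groups, Ccl5 is high in all groups and Xcl1 is highest in marrow replicate 3.

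Counted over the 4 chemokines, NKDxIL15tg against IL15tg spleen gave 2 of 4 chemokines lower (Ccl3 and Ccl4) and 0 higher, where 7.04% of all tested probe sets were lower, 6.75% higher and 13.8% changed in either direction. Ccl3, Ccl4 and Ccl5 were lower with no overlap between the groups, as were 18.8% of all tested probe sets. NKDxIL15tg marrow against IL15tg spleen gave the same 2 of 4 lower and 0 higher, where 11.5% of probe sets were lower, 9.79% higher and 21.3% changed. In that comparison Ccl3, Ccl4 and Ccl5 again did not overlap, against 20.4% of probe sets lower without overlap, and both comparisons share the IL15tg arrays. NKDxIL15tg marrow against NKDxIL15tg spleen gave 0 of 4 past limma's adjusted threshold and 1, Xcl1, at an unadjusted p under 0.05, a level that 10.4% of all tested probe sets reached. In this comparison 0.0518% of probe sets, 14 in number, passed the threshold, and 23 did with the replicate number as a block. Xcl1 was higher without overlap, as were 9.77% of probe sets, and Ccl5 lower without overlap, as were 6.31%. The other marrow against spleen log2 changes were 0.04 ± 0.29 for Ccl3 (interval -0.62 to 0.70, adjusted p = 0.963), 0.18 ± 0.15 for Ccl4 (-0.16 to 0.52, 0.594) and -0.09 ± 0.09 for Ccl5 (-0.30 to 0.12, 0.677). These intervals do not show that the NKDxIL15tg organs are alike, and for Ccl3 they allow a change of up to 0.70 on the log2 scale. Without marrow replicate 3 the changes were -0.22 for Ccl3, 0.23 for Ccl4 and -0.11 for Ccl5, and the sign for Ccl3 thus turned. The exact permutation test of 3 against 3 arrays cannot go below p = 0.1 and was not used for single genes.

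**Figure D2:**
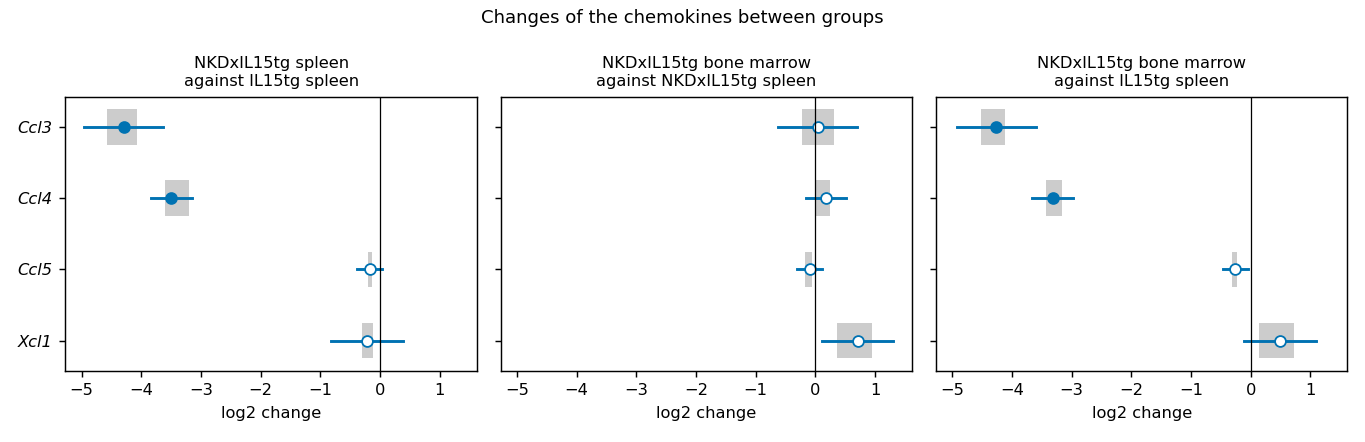
Log2 change of each chemokine in the 3 comparisons, the group named first over the group named second (x axis, log2 units). Points are limma estimates with 95% intervals, filled where the adjusted p is under 0.05, and grey boxes span the values over 17 alternative settings, the arrays left out in turn included. Ccl3 and Ccl4 lie near -4.30 and -3.50 in spleen, while Ccl5 and Xcl1 lie at -0.17 and -0.22.

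Markers of other cells also differed between the groups. Of the genes of granulocytes and monocytes, 7 of 17 tested markers were higher in NKDxIL15tg than in IL15tg spleen. In marrow against IL15tg spleen 14 of 17 were higher, and 0 were lower in either comparison. Over all tested genes 7.65% were higher and 4.87% lower in NKDxIL15tg against IL15tg spleen, and 11.5% higher and 8.7% lower in marrow against IL15tg spleen. The summed intensity of the 19 measured markers was 16141 to 38612 in NKDxIL15tg marrow, 7073 to 12377 in NKDxIL15tg spleen and 4082 to 4326 in IL15tg spleen. S100a8, a neutrophil calcium-binding protein, averaged 5421, 1806 and 147 in the same order. Among macrophage and dendritic cell markers 6 of 14 tested were lower in NKDxIL15tg than in IL15tg spleen. In marrow against IL15tg spleen 7 of 14 were lower, and 0 were higher in either comparison. The median log2 change of the 14 was 0.01 in spleen, beside 0.02 over all genes. In marrow against IL15tg spleen it was -0.62, beside 0.12. The summed intensity of 18 such markers was 1976 to 2512, 2942 to 3245 and 5721 to 8570 in the same order of groups as above. The 6 were Itgax, which NK cells also express as they mature, Batf3, and the MHC class II genes H2-Aa, H2-Ab1, H2-Eb1 and Cd74. Adgre1, the macrophage F4/80 antigen, read 99.6 to 115 in NKDxIL15tg marrow, 98.1 to 118 in NKDxIL15tg spleen and 97.2 to 122 in IL15tg spleen, and Marco was at most 47.2 on all arrays. B cell markers were lower for 5 of 8 tested in both of these comparisons, with Cd79b at 20.4 to 24.6, 54.5 to 68.3 and 153 to 356, although the summed intensity of 10 markers overlapped, at 1244 to 3087, 2253 to 3411 and 2206 to 3606. T cell markers were 1 of 9 higher, Cd28, and Cd5 was under 32 on all arrays. Their 12-marker sums were 3929 to 4882, 4103 to 4589 and 2581 to 2824. Sums for basophils and mast cells were 668 to 1051, 597 to 620 and 683 to 717, and for platelets 663 to 727, 602 to 679 and 599 to 629. Erythroid marker sums were 5702 to 7668, 7715 to 8303 and 1911 to 2070, and Car2 made up most of them, with means of 5986, 7016 and 1407. The 3' to 5' log2 ratio of Gapdh also parted the spleen groups, at 1.62 to 1.87 in NKDxIL15tg and 1.99 to 3.21 in IL15tg. The part of these cells or of RNA length in the chemokine differences was not tested.

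Of the receptors of the 4 chemokines 4 passed the filter on dim probe sets, and 0 of these 4 passed limma's adjusted threshold in any of the 3 comparisons, where 12.5%, 0.0696% and 20.2% of 12925 genes did in spleen, in marrow against NKDxIL15tg spleen and in marrow against IL15tg spleen. Ccr1, the signalling receptor for Ccl3 and Ccl5, averaged 44.5 in NKDxIL15tg marrow, 33.7 in NKDxIL15tg spleen and 26.6 in IL15tg spleen and did not pass the filter. Ccr3, an eosinophil receptor that Ccl5 can engage, averaged 17.2, 15.1 and 16.5 in the same order and did not pass it either, and 1 of the 7 listed receptors is not analysed here. Xcr1, the receptor of Xcl1, averaged 58.1, 59.6 and 52.2. The decoy receptor Ackr2, which takes up inflammatory CC chemokines without signalling, averaged 61.4, 61.6 and 82.2, with a spleen log2 change of -0.43 ± 0.15 (adjusted p = 0.106). Without marrow replicate 3 Ackr2 was past the threshold in spleen (0.0369) and in marrow against IL15tg spleen (-0.57, 0.0154), where it also passed with the replicate block (0.0414). Ackr1, another scavenger, averaged 80.6, 88.7 and 90.2. Ccrl2, which holds chemerin on the cell surface and whose link to Ccl5 is less settled, averaged 147, 160 and 191. In marrow against IL15tg spleen its log2 change was -0.38 (adjusted p = 0.0598), and Ccrl2 passed with the replicate block (0.0494) and with array weights (0.0217). Thus 2 of 4 receptors were lower there with the block and with array weights. In the same comparison 1 of 4 was lower at a common 75th percentile and after quantile normalization. In spleen 1 of 4 was lower with array weights and with only the 2 compared groups in the fit.

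Among the other chemokine ligands few differed between the groups. Of 37 ligands listed, 35 had a probe set and 21 passed the filter, the 4 described above included. In NKDxIL15tg against IL15tg spleen 1 of the 21 was higher (Ccl27a) and 3 were lower (Ccl3, Ccl4 and Pf4). Beside them, 7.65% of all tested genes were higher and 4.87% lower. Of the lower ligands only Pf4 is not among the 4 chemokines followed here. The median log2 change of the 21 was -0.09, beside 0.02 over all genes. Ccl27a, known as a skin-homing chemokine, was higher by 0.73 ± 0.12 (adjusted p = 0.00573), with means of 83.0 in NKDxIL15tg and 50.1 in IL15tg spleen, and its p was 0.0721 with the floor at 64. Pf4, the platelet chemokine, was lower by a log2 change of -0.51 ± 0.11 (adjusted p = 0.0143), at 61.7 against 88.2, and Pf4 lost the call at a common 75th percentile (0.0582) and without IL15tg replicate 1 (0.0646) or 2 (0.0583). In NKDxIL15tg marrow against IL15tg spleen 1 was higher and 3 were lower (11.5% and 8.7% of all genes), namely Ccl27a at 0.70 ± 0.12, and Ccl3, Ccl4 and Cxcl10, and the counts were the same over the 19 ligands tested without marrow replicate 3. Cxcl10, an interferon-induced ligand of Cxcr3, had a log2 change of -0.74 ± 0.20 (adjusted p = 0.0309), with means of 78.4 and 129, and its p was 0.0511 to 0.105 when any 1 of the IL15tg arrays was left out and 0.0655 without marrow replicate 1. Ccl3 and Ccl4 thus had the 2 largest changes among the tested ligands in both comparisons with IL15tg cells.

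Marrow against NKDxIL15tg spleen gave 0 of 21 ligands past the threshold, beside 0.0696% of all genes, with a median log2 change of 0.42 for the ligands and 0.03 for all genes. Marrow replicate 3 was the highest of the 9 arrays for 11 of the 21 ligands (52.4%), against 32.1% of all tested genes. For 7 of the 21 (33.3%) it exceeded every array of the remaining 8 by more than 2-fold, as for 8.62% of all genes: Cxcl13, Cxcl16, Ccl28, Ccl20, Ccl17, Ccl1 and Cxcl1. Cxcl13, a B cell attractant, read 357 in it and at most 49.4 elsewhere, and Cxcl16, a membrane-bound ligand, read 670 and at most 124. Xcl1 lay 1.86-fold above the next array in the same replicate, while Ccl5 was 0.835 of the highest other array.

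**Figure D3:**
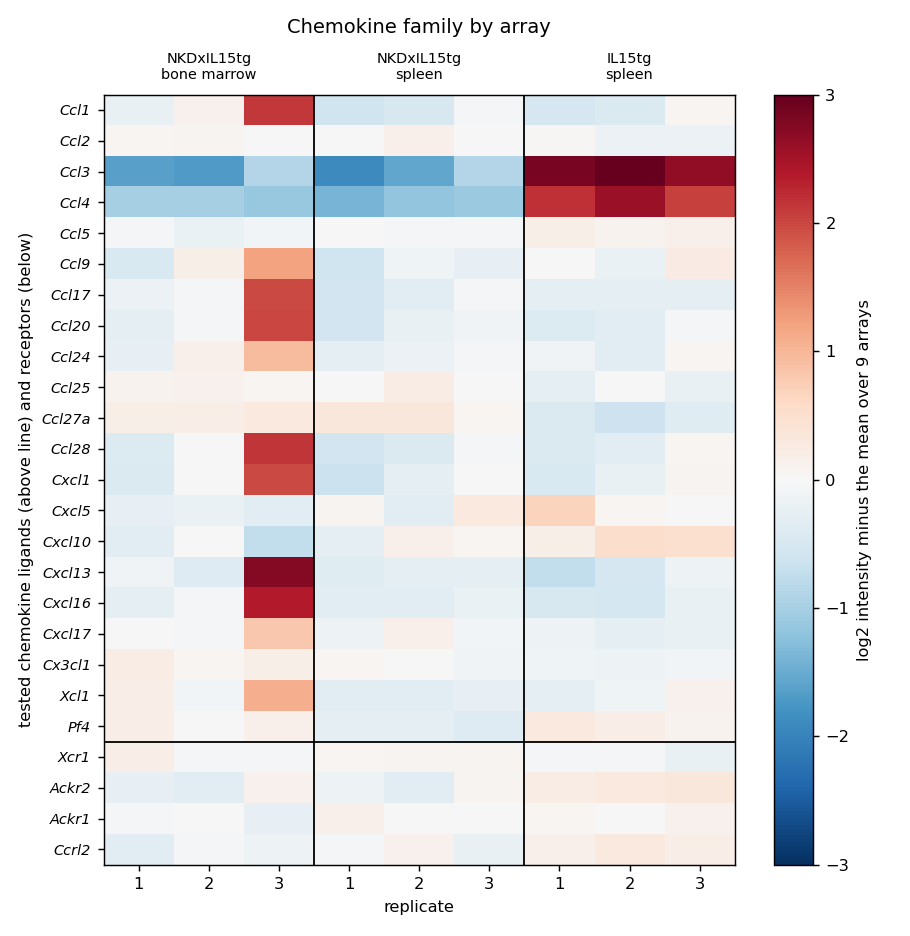
Log2 intensity of 21 tested chemokine ligands (above the line) and 4 tested receptors (below it) on each array, minus the gene's mean over 9 arrays, with NKDxIL15tg marrow, NKDxIL15tg spleen and IL15tg spleen from left to right. Red is above and blue below the mean, and values beyond 3 take the end colour. Ccl3 and Ccl4 separate the IL15tg arrays from the rest, and several other ligands are high in marrow replicate 3 alone.

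Ccl3, Ccl4 and Ccl5 lie in one chemokine cluster on chromosome 11, where the reference order of protein-coding genes is Heatr9, Ccl5, Ccl9, Ccl6, Ccl3, Ccl4, Wfdc17, Wfdc18 and Wfdc21. The cluster members between Ccl5 and Ccl3 did not pass the test or the filter. Ccl9, a chemokine of myeloid cells in mice, averaged 155 in NKDxIL15tg marrow, 90.6 in NKDxIL15tg spleen and 114 in IL15tg spleen, with a spleen log2 change of -0.33 ± 0.35 (limma's adjusted p = 0.631). Ccl6, likewise a myeloid chemokine of mice, averaged 38.8, 27.4 and 33.7 and did not pass the filter. On the far side of Ccl4, Wfdc21 was higher in NKDxIL15tg than in IL15tg spleen (log2 change 2.09 ± 0.54, adjusted p = 0.0331), with means of 803, 140 and 30.3 in the order of groups above. Wfdc17 averaged 103, 86.8 and 60.9, with a spleen log2 change of 0.51 (adjusted p = 0.102). Wfdc21 thus moved the other way from Ccl4, in the direction of the granulocyte markers, but its p in spleen was 0.0758 to 0.114 when any 1 of the IL15tg arrays was left out, 0.0989 without NKDxIL15tg spleen replicate 2 and 0.0944 without replicate 3. Xcl1 lies apart from these genes on chromosome 1, between Dpt and Tbx19.

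In a list of effector cytokines of lymphocytes, Ifng and Ltb fell and Il2 rose in NKDxIL15tg cells. Of 15 listed, 12 were tested, and 1 was higher and 2 were lower in NKDxIL15tg against IL15tg spleen, beside 7.65% and 4.87% of all genes, with a median log2 change of -0.08 beside 0.02. The higher share, 1 gene of 12, is near that of all genes. Ifng, the main macrophage-activating cytokine of NK cells, read 212 to 328 in NKDxIL15tg marrow, 504 to 858 in NKDxIL15tg spleen and 2606 to 3168 in IL15tg spleen. Its spleen log2 change was -2.16 ± 0.23 (limma's adjusted p = 0.000522), so Ifng fell in the same comparison as Ccl3 and Ccl4. Ltb, the membrane anchor of lymphotoxin, averaged 194, 106 and 980 in the 3 groups, with a spleen log2 change of -3.20 ± 0.43 (adjusted p = 0.00176). Il2, the T cell growth factor, went the other way, with means of 244, 184 and 40.5 and a log2 change of 2.20 ± 0.22 (adjusted p = 0.000412). Tnf had a spleen log2 change of -0.12 (adjusted p = 0.909), Csf2 of 0.71 (0.0621) and Fasl of -0.04, and none of them passed. Csf2, a myeloid growth factor, did pass without marrow replicate 3 (0.00579), and with the replicate block (0.0306). In spleen the count of higher cytokines was 2 with array weights, the replicate block or only the 2 compared groups in the fit. It was also 2 at a common 75th percentile, after quantile normalization and without NKDxIL15tg spleen replicate 3 or marrow replicate 3. In marrow against IL15tg spleen 2 were higher (Il2 and Mif) and 3 lower (Ifng, Ltb and Lif), beside 11.5% and 8.7% of all genes, with a median of 0.22 beside 0.12 over all genes, and the counts were the same without marrow replicate 3. Mif lost its call without IL15tg replicate 1 (0.0588), Lif lost its call without IL15tg replicate 1 (0.0942) or 2 (0.0882) and without marrow replicate 2 (0.0693), while Ifng, Ltb and Il2 kept theirs in both comparisons under all 17 alternatives. Against NKDxIL15tg spleen 0 of 12 passed in marrow, with a median of 0.37.

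Part of the genes known to regulate chemokine transcription were lower in NKDxIL15tg cells, led by Zeb2 and Fos. Of 39 listed, 37 were tested, and 1 was higher and 11 were lower in NKDxIL15tg against IL15tg spleen, beside 7.65% and 4.87% of all genes, with a median log2 change of -0.49 beside 0.02. In marrow against IL15tg spleen 1 was higher and 14 were lower, beside 11.5% and 8.7% of all genes, with a median of -0.45 beside 0.12, and against NKDxIL15tg spleen 0 of 37 passed, with a median of -0.15 beside 0.03. Zeb2, a repressor that NK cells need to mature, read 122 to 177 in NKDxIL15tg marrow, 151 to 389 in NKDxIL15tg spleen and 1572 to 2087 in IL15tg spleen, a spleen log2 change of -2.78 ± 0.32 (limma's adjusted p = 0.000754). Fos, an AP-1 subunit induced within minutes of stimulation, had means of 93.2, 267 and 1586 and a spleen log2 change of -2.72 ± 0.48 (adjusted p = 0.00692, and 0.0525 with the floor at 64). Tbx21, the T-box factor T-bet, read 418 to 849, 701 to 1029 and 1781 to 2227, with a spleen log2 change of -1.29 ± 0.25 (adjusted p = 0.0113). The Tbx21 call was lost without IL15tg replicate 1 (0.0523) and with the floor at 64 (0.0637). Zfp36, which encodes an RNA-binding protein that destabilises cytokine messages, had a spleen log2 change of -1.13 ± 0.24 (adjusted p = 0.0161), and Irf8, a factor of interferon responses, of -1.06 ± 0.15 (0.00209). Zfp36 lost the call without IL15tg replicate 1 (0.0541) or 2 (0.0627) and without NKDxIL15tg spleen replicate 1 (0.0508), whereas Zeb2 and Irf8 kept theirs under all 17 alternatives. Runx1, a factor whose family binds the letters marked in the Ccl3 and Xcl1 windows, read 359 to 415, 362 to 498 and 647 to 719, with a spleen log2 change of -0.74 ± 0.14 (adjusted p = 0.00862). Nfatc2, a calcium-dependent activator of cytokine genes, was the 1 gene higher, by 0.79 (adjusted p = 0.0234), a call lost without each IL15tg array in turn (0.0511 to 0.0937) and without NKDxIL15tg spleen replicate 1 (0.0748) or 2 (0.0618). Of the NF-kB subunit genes, Rela, Rel, Nfkb2 and Relb did not pass, with spleen log2 changes of -0.11, -0.05, 0.42 and 0.01. The listed subunit gene Nfkb1 is not described here. In spleen the count of lower regulators became 4 when IL15tg replicate 1 was left out, 5 for replicate 2 and 8 for replicate 3, and 7 without NKDxIL15tg spleen replicate 1 or 3. The same count was 4 with the floor at 64, 8 at a common 75th percentile and 9 with no filter or with the replicate block. It was 15 with only the 2 compared groups in the fit and 16 with array weights. With marrow replicate 3 left out, the marrow count against IL15tg spleen was 17 lower and 0 higher.

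Among the regulators, the largest changes in marrow against IL15tg spleen were Fos at -4.07 ± 0.48, Zeb2 at -3.58 ± 0.32, the AP-1 partner Jun at -2.31 ± 0.43, Tbx21 at -1.71 ± 0.25 and Irf8 at -1.50 ± 0.15, all log2 changes with limma's adjusted p from 0.000146 to 0.00624. In this comparison Batf was the 1 gene higher, by 0.79 ± 0.25 (adjusted p = 0.0495), and it was not called without marrow replicate 3. Among genes of the machinery that stores and releases secreted proteins, Stx3 was lower in NKDxIL15tg cells and Snap23 was higher in NKDxIL15tg spleen. Of 20 listed, 19 were tested, and 5 were higher and 1 was lower in NKDxIL15tg against IL15tg spleen, beside 7.65% and 4.87% of all genes, with a median log2 change of 0.23 beside 0.02. Stx3, a syntaxin of membrane fusion, averaged 57.3 in NKDxIL15tg marrow, 56.7 in NKDxIL15tg spleen and 338 in IL15tg spleen, a spleen log2 change of -2.56 ± 0.17 (adjusted p = 2.91e-05). Snap23, its SNARE partner, was higher by 0.95 ± 0.18 (adjusted p = 0.00900) and Rab27a, which docks secretory granules, by 0.79 ± 0.16 (0.0143). Lamp1 and Lamp2, proteins of the lysosome and granule membrane, were higher by 0.51 and 0.53. The Snap23 call in spleen held under all 17 alternatives, but Rab27a lost its call without each IL15tg array in turn (0.05 to 0.0584), without NKDxIL15tg spleen replicate 2 (0.0535) and with the floor at 64 (0.0555). In spleen the count of higher genes was 1 when any 1 of the IL15tg arrays was left out, 3 without NKDxIL15tg spleen replicate 1 or 2 and 2 without replicate 3, with Stx3 lower each time. Srgn, the granule proteoglycan that binds chemokines and granzymes, averaged 4490, 4612 and 4443 in the 3 groups, with a spleen log2 change of 0.05 (adjusted p = 0.864). Marrow against IL15tg spleen had 6 higher and 1 lower, Stx3 again, beside 11.5% and 8.7% of all genes, with a median of 0.08 beside 0.12 and the same counts without marrow replicate 3, and 0 of 19 passed against NKDxIL15tg spleen. The 6 became 3 without any 1 of the IL15tg arrays or without marrow replicate 1. Snap23 was among the 6 (0.0312), but lost its call in marrow without IL15tg replicate 1 (0.0795) or 3 (0.101), without marrow replicate 1 (0.0853) and with the replicate block (0.053).

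Ccl3 and Ccl4 had similar patterns over the 9 arrays, and Ccl5 and Xcl1 each differed from them. Likeness was measured as the root mean square difference between log2 values over the 9 arrays, after subtracting each probe set's own mean. All tested probe sets with a single symbol were compared, and each gene was placed by its probe set nearest to the chemokine. Medians are over these probe sets, and the ranking is a description. Nearest to Ccl3 were AI504432 (0.44), Itgax (0.50), Ccl4 (0.52), Slc9a9 (0.57) and Klrc1 (0.57), against a median of 2.09. Nearest to Ccl4 were Padi2 (0.29), Sgk1 (0.32), Itgam (0.37), Slc9a9 (0.40) and Gm36723 (0.42), against a median of 1.66, and Ccl3 was the 14th nearest, at 0.52. Of these, Itgax and Itgam encode integrin chains that NK cells gain as they mature, Klrc1 encodes the lectin receptor NKG2A, and Slc9a9 encodes an endosomal sodium and proton exchanger. For example, Itgax averaged 51.8 in NKDxIL15tg marrow, 60.8 in NKDxIL15tg spleen and 1703 in IL15tg spleen. Nearest to Ccl5 were Nus1 (0.04), Rab40c, Desi1, Ccdc117 and Tyrobp (0.05 each), against a median of 0.26. Tyrobp, the adaptor DAP12 of activating NK receptors, averaged 5581 in NKDxIL15tg marrow, 5812 in NKDxIL15tg spleen and 6483 in IL15tg spleen. Nearest to Xcl1 were Traip (0.06), Klhl11 (0.08), Scrt2 (0.09), Rasgrf1 (0.10) and Clgn (0.10), against a median of 0.47, all with their highest value in marrow replicate 3, the array that stood apart. Between the chemokines the difference was 1.95 for Ccl3 and Ccl5, 2.12 for Ccl3 and Xcl1, 1.52 for Ccl4 and Ccl5, 1.73 for Ccl4 and Xcl1, and 0.47 for Ccl5 and Xcl1. The last value lay above the median for Ccl5, 0.26, and at the median for Xcl1, 0.47, so it marks no special likeness.

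**Figure D4:**
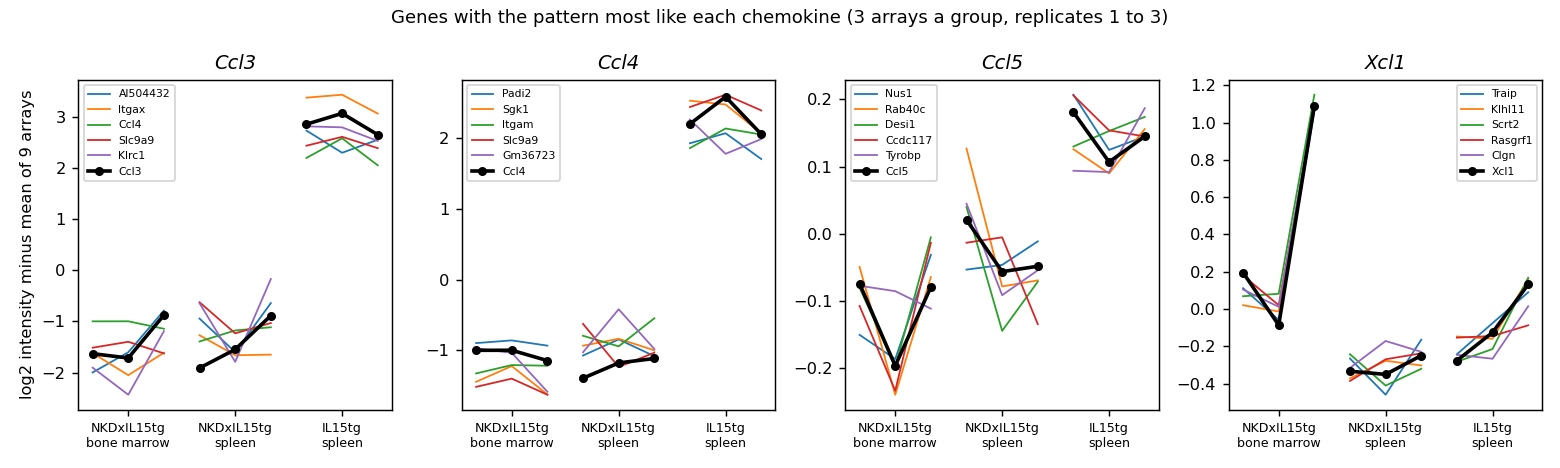
Log2 intensity minus the mean over 9 arrays for each chemokine (black) and the 5 genes nearest to it (colours), with NKDxIL15tg marrow, NKDxIL15tg spleen and IL15tg spleen from left to right and the 3 replicates of a group joined only to trace a gene. The y axes differ in scale. Ccl3 and Ccl4 and their nearest genes step up in IL15tg spleen, Ccl5 spans a narrow range, and the Xcl1 pattern is set mainly by marrow replicate 3.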

How the data were processed

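RNA of 9 sorted samples was hybridised after amplification in 2 cycles from 150 ng of total RNA, per the labels' protocols. For each array the authors deposited linear intensities of 45101 probe sets. The summary of probes and the scaling are not given in the sources used here. The deposited intensities were used unscaled, since array medians differed by at most 0.20 on the log2 scale, under the limit of 0.3. Values under 16 (4.36%) were set to 16 before the log2 transform, 64 control probe sets were left out, and probe sets at or above the 40th percentile of mean log2 intensity (5.58) were tested.

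A model of 3 group means was fitted in R 4.3.3 by limma 3.58.1, using lmFit and eBayes 2-sided. Figures and counts used python 3.11.15. The script was tested on simulated data. The number of arrays limits precision, and log2 changes had a median standard error of 0.15. A gene is represented in lists by its brightest probe set (12925 genes). Named are all 4 chemokines and their measured receptors, the 5 largest changes past the threshold in each list, genes named for a role toward the chemokines, and the 5 genes nearest in pattern. The chemokines, lists and tests were chosen with earlier results of these data known. Platform annotation names 34945 probe sets with 1 symbol, 932 with several and 9160 with none. GRCm38.p6 gave gene order and sequence, and none of its gene coordinates are printed beyond those windows.

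Replicate numbers were checked as pairs. Deviations of same-numbered arrays correlated at 0.38, 0.26 and 0.23 between NKDxIL15tg marrow and spleen, and at 0.16, 0.16 and 0.12 between the NKDxIL15tg and IL15tg spleens. All exceed 0.1, the limit set for pairing, although 3 differently numbered pairs of the spleen groups correlated as highly, at 0.16, 0.14 and 0.12. Between NKDxIL15tg marrow and IL15tg spleen they were 0.17, -0.02 and 0.24, so these were not taken as paired. The main fit used group means only in every comparison, and the replicate number entered only as the alternative block. No arrays were copies, with at most 0.00887% of values shared. Alternatives were other scaling, floor, filter, block, array weights, a fit of 2 groups and each array left out.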

Additional observations from a re-analysis of the deposited data

How the results depend on the processing

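Each of the 12 chemokine changes and 3 counts was recomputed under 17 alternatives. The falls of Ccl3 and Ccl4 against IL15tg spleen stayed past the threshold in all 17, at -4.58 to -4.07 and -3.61 to -3.20 in spleen and at -4.52 to -4.11 and -3.43 to -3.17 in marrow. In NKDxIL15tg marrow against NKDxIL15tg spleen, where no chemokine was called, the Ccl3 log2 change of 0.04 turned to -0.04 at a common 75th percentile, -0.06 after quantile normalization and -0.17 with array weights, and ran from -0.22 to 0.32 without single replicates. Ccl4 was at 0.00 there with the floor at 64, where all its values but those of IL15tg spleen reach the floor. Ccl5 in marrow against IL15tg spleen (-0.26) passed with the floor at 64 and with no filter. Xcl1 in marrow against NKDxIL15tg spleen ran from 0.37 (without marrow replicate 3) to 0.95 without single replicates. Probe sets changed in spleen numbered 3725, against 2102 with the floor at 64, 5685 with array weights and 1777 to 5511 without single replicates (1777, 1784 and 2047 without IL15tg replicates 1, 2 and 3). In marrow against NKDxIL15tg spleen they numbered 14, against 5 with the floor at 64, 2 with no filter, 23 with the replicate block and 1 to 15 without single replicates. In marrow against IL15tg spleen they numbered 5764, against 3466 with the floor at 64 and 3046 to 6384 without single replicates. With array weights they numbered 8046 there. The replicate block changed no call of a chemokine. The cause of these shifts was not tested. Dim signals such as Ccl4 in NKDxIL15tg cells lack detection calls, which limits their fold changes.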
